A study of Rattus norvegicus with 31 samples.

Results

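The protein phosphatase subunits described here are the genes whose symbol in the array annotation begins with Ppp and a digit from 1 to 6. These symbols cover the catalytic subunits of the PP1, PP2A, calcineurin (PP3), PP4, PP5 and PP6 enzymes and the scaffolds, targeting subunits and inhibitors that bind them. The table held 57 such genes out of 9037 and 82 of their probesets out of 16204, where a probeset is a set of short probes read as 1 signal. A gene was first represented by its brightest probeset, the one with the highest mean over the 31 arrays, and then by all of its probesets. There were 42 genes with 1 probeset and 15 with several.

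The arrays held RNA of the hippocampal CA3 region from male Long-Evans rats aged 24 to 26 months, with 1 rat per array. In an earlier water maze with a hidden platform, aged unimpaired (AU) rats performed within the range of young adults and aged impaired (AI) rats did not. Training later gave 8 trials with a visible platform. The platform stayed in place among spatial cues (spatial, S) or was moved with the cues removed (non-spatial, NS). A probe swim without the platform followed, and CA3 was dissected right after it, about 2 hours from the start of the task. The spatial task was given to 8 AU rats (AU-S) and 8 AI rats (AI-S), and the non-spatial task to 8 AU rats (AU-NS) and 7 AI rats (AI-NS); pooled over tasks they are AU-act (16) and AI-act (15), and no untrained group is analysed here.

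Serine/threonine phosphatases remove phosphate that protein kinases have added. The catalytic subunits of PP1 and PP2A have little selectivity by themselves and owe their substrates and their place in the cell to the subunits they bind. A PP2A enzyme combines a scaffold, a catalytic subunit and a B-type regulatory subunit, while calcineurin combines a catalytic A subunit with a calcium-binding B subunit and is switched on by calcium and calmodulin. In hippocampal neurons calcineurin and PP1 are known for their part in long-term depression of synaptic strength. Inhibitor-1 and its relatives restrain PP1.

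Array medians lay between 8.97 and 9.14 on the log2 scale, and every array had a mean correlation with the others between 0.981 and 0.989. Of the CA3 pyramidal markers 4 of 6 were measured, with a summed signal of 13.29 to 13.62 in AU-act and 13.24 to 13.60 in AI-act on the log2 scale, and 0 of the 4 passed limma's test. Dentate granule markers (2 of 7 measured) summed to 10.57 to 11.15 in AU-act and 10.53 to 11.80 in AI-act. The brain holds many cell types, and less mRNA in each cell cannot be told apart from fewer cells of a type in these dissections. Over the 8 cell type lists with a measured gene, 1 of 39 markers passed, the GABA-synthesizing enzyme Gad2 of the interneuron list, which was higher in AU-act by 0.48 (SE 0.14, limma, adjusted p = 0.0391). The 7 interneuron markers summed to 12.86 to 13.43 in AU-act and 12.74 to 13.19 in AI-act. Their median difference was 0.019, and their mean score differed by 0.035 (permutation test, two-sided, p = 0.674). The part of these markers in the results was not tested.

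AU-act rats had more mRNA of 3 phosphatase subunits than AI-act rats at the brightest probeset, and of 8 when any probeset was counted. The 3 were Ppp2r2c, a brain-enriched B regulatory subunit of PP2A, Ppp1r7, a leucine-rich repeat regulator of PP1 also known as Sds22, and Ppp6c, the catalytic subunit of PP6. Groups were compared with limma on the log2 signal, with Benjamini-Hochberg adjustment over all 16204 probesets and an adjusted p threshold of 0.05. The 3 genes were 5.26% of the 57, where 2.05% of all 9037 genes were higher. No subunit was lower (0 of 57, with 1 at an unadjusted p under 0.05), where 0.31% of all genes were. Over all probesets 9 of 82 were higher (11.0%), where 5% of all probesets were. Counting a gene at any of its probesets, 8 of 57 were higher, where 6.89% of all genes were. The 3′ to 5′ signal gap of RNA control transcripts, described further on, also differed between the phenotypes (permutation p = 0.0005 for beta-actin with Gapdh and 4e-05 for hexokinase), and 0 of the 9 probesets passed with either gap as a covariate.

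Differences of the other subunits were small. Over the 57 brightest probesets the median of AU-act minus AI-act was 0.032 on the log2 scale, against 0.0032 over all 9037 genes. With each array centred on its median it was 0.020 (all genes -0.0097), and with quantile normalization 0.0088 (all genes -0.013). With the beta-actin and Gapdh covariate it was 0.020 (all genes 0.0015) and with the hexokinase covariate 0.022 (all genes 0.013). The difference was above 0 for 46 of the 57 (51.7% of all genes), for 36 with median centring (45% of all genes) and for 35 with quantile normalization (42.9% of all genes). At an unadjusted p under 0.05 there were 14 subunits higher and 1 lower, together 26.3% of the 57, where 14% of all genes passed that limit.

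**Figure D1:**
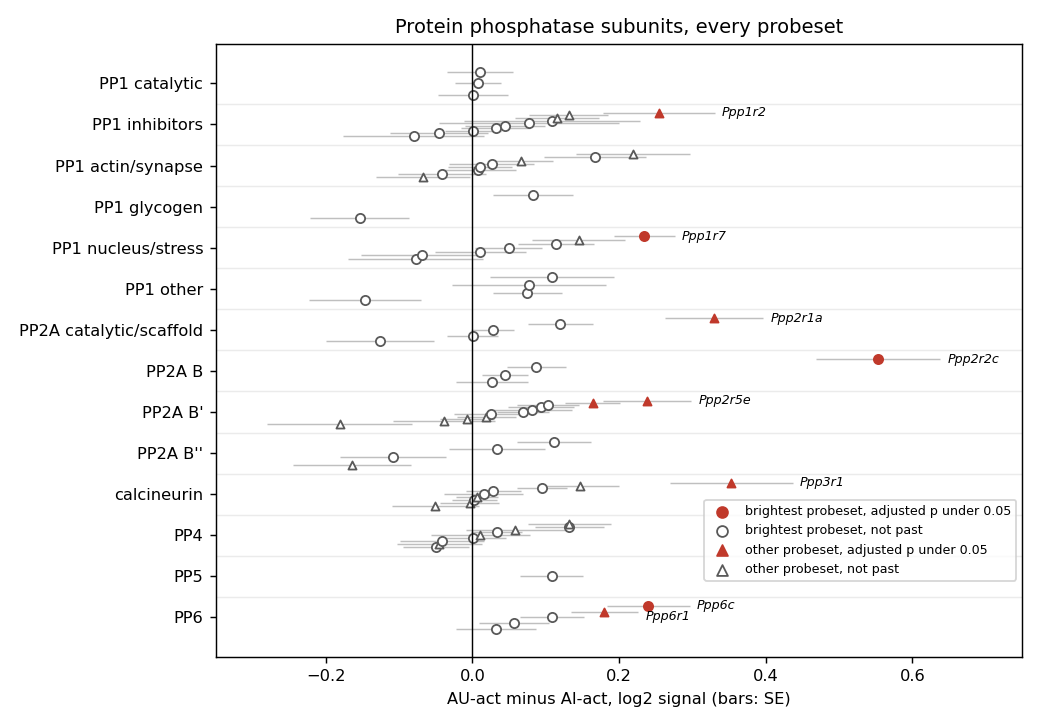
AU-act minus AI-act difference in log2 signal (horizontal axis, bars are the SE) of all 82 probesets, by family (vertical axis). Circles are the brightest probeset of a gene, triangles are its other probesets, and filled red symbols passed limma's adjusted p threshold of 0.05. The differences run from -0.18 to 0.55, the 9 that passed are all above 0, and Ppp2r2c is farthest to the right (both Ppp2r5e triangles share a name).

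The upstream sequences of the 3 genes that passed at the brightest probeset are shown because these genes passed in the same comparison. Each is the 250 bases before the annotated start in RefSeq on the GRCr8 rat build, 5′ to 3′ on the strand of the gene. Capitals mark motifs searched on both strands. The GC box was searched as GGGCGG or, on the other strand, CCGCCC. For the CCAAT box the letters on the other strand are ATTGG. The core of the cyclic AMP response element was searched as TGACG, which the other strand spells CGTCA. No match of these motifs overlapped another.
Ppp2r2c (chr14:78156213-78156462, minus strand): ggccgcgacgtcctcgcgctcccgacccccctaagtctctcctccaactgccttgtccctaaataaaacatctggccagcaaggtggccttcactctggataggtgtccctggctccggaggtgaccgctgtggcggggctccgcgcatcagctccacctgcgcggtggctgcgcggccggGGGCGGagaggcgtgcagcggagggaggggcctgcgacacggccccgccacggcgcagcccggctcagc
Ppp1r7 (chr9:101333247-101333496, plus strand): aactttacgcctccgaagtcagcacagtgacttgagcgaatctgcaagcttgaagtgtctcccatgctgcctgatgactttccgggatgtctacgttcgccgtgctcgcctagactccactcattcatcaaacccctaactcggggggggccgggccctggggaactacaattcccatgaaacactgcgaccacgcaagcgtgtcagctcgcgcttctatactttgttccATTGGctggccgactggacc
Ppp6c (chr3:43371808-43372057, minus strand): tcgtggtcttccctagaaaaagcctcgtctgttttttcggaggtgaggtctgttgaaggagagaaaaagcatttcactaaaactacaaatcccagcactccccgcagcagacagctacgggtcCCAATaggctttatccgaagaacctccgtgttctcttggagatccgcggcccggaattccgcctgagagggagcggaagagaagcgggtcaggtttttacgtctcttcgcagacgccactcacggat
Ppp2r2c had 1 GC box and Ppp1r7 and Ppp6c had 1 CCAAT box each, on opposite strands, while none of the 3 windows held the TGACG letters on either strand. No motif was shared by all 3. Among all 33469 rat promoter windows of this length 30.5% held a GC box, 34.0% a CCAAT box and 18.2% the TGACG core. Among the 49 windows that matched 47 of the 57 subunit genes, the shares were 55.1%, 42.9% and 40.8%. The windows of all rat promoters were not limited to measured genes or matched for G and C, and the shares were not tested. The Ppp2r2c window was 70.8% G and C with 25 CG pairs, the Ppp1r7 window 56.0% with 16 and the Ppp6c window 52.8% with 17, beside a median of 51.2% and 5 over all windows. A match of letters is a description of the window and not a known binding site.

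Ppp2r2c (probeset 1369297_at) had log2 signals of 9.26 to 9.83 with a median of 9.56 in AU-act rats, against 8.40 to 9.39 with a median of 8.95 in AI-act rats. The groups overlapped, but 11 of the 16 AU-act arrays lay above the highest AI-act array and 12 of the 15 AI-act arrays lay below the lowest AU-act array. The difference was 0.55 (SE 0.085), or 1.47-fold (limma, adjusted p = 0.00127). Its p was the smallest among the brightest probesets of all 9037 genes. The call was lost with the beta-actin and Gapdh covariate (0.35, SE 0.078, limma, adjusted p = 0.146) and with the hexokinase covariate (0.26, SE 0.085, adjusted p = 0.619).

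Ppp1r7 (probeset 1373073_at) ranged between 10.24 and 10.61 with a median of 10.35 in AU-act, against 9.90 to 10.29 with a median of 10.13 in AI-act. Of the AU-act arrays 10 of 16 lay above every AI-act array, and 13 of 15 AI-act arrays lay below every AU-act array. The difference was 0.23 (SE 0.042), or 1.18-fold (limma, adjusted p = 0.00158). Its dimmer probeset, 1383277_at, differed by 0.15 (SE 0.063) and did not pass (adjusted p = 0.191). The call of the brighter probeset was lost with beta-actin and Gapdh as the covariate (0.15, limma, adjusted p = 0.192) and with hexokinase (0.16, adjusted p = 0.619).

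Ppp6c (probeset 1387801_at) had signals of 8.84 to 9.25 with a median of 8.98 in AU-act, against 8.50 to 9.13 with a median of 8.75 in AI-act. The overlap was wider, with 4 of 16 AU-act arrays above every AI-act array and 10 of 15 AI-act arrays below every AU-act array. The difference was 0.24 (SE 0.056), or 1.18-fold (limma, adjusted p = 0.00837). It was 0.14 with the beta-actin and Gapdh covariate (limma, adjusted p = 0.365) and 0.12 with hexokinase (adjusted p = 0.733), neither past the threshold.

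**Figure D2:**
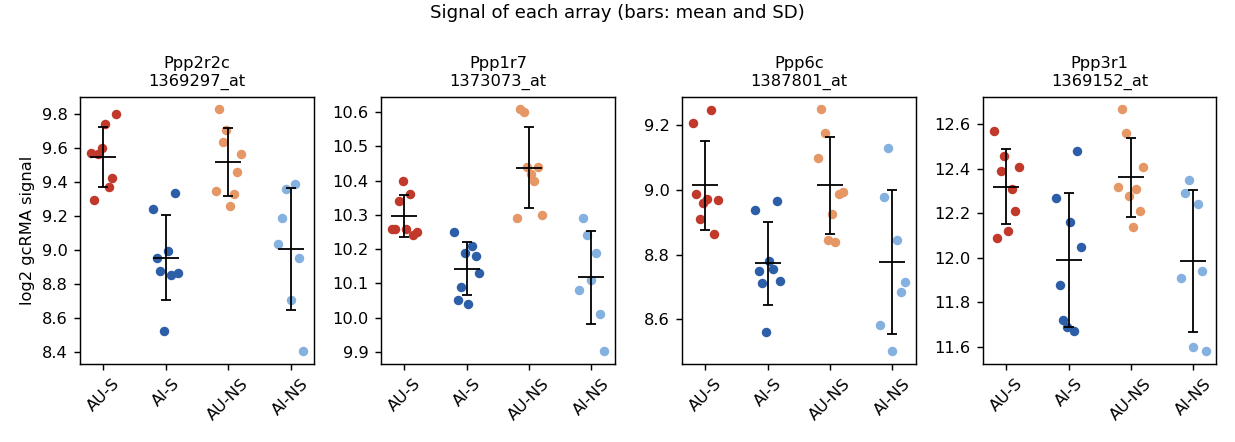
Log2 gcRMA signal (vertical axis) of each array by task and phenotype (horizontal axis) for Ppp2r2c, Ppp1r7, Ppp6c and the probeset of Ppp3r1 that passed, with the mean and SD as bars. Each panel has its own scale. Ppp2r2c averaged 9.55 in AU-S and 8.95 in AI-S, and 9.52 in AU-NS and 9.01 in AI-NS.

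Among the catalytic subunits, Ppp6c alone passed. The other 10 had differences between -0.042 and 0.11 on the log2 scale, and 8 of the 11 lay within 0.05 of 0. For PP1, Ppp1ca differed by 0.00030 (SE 0.048), Ppp1cb by 0.0097 (SE 0.045) and Ppp1cc by 0.0079 (SE 0.032). For PP2A, Ppp2ca differed by 0.00033 (SE 0.035) and Ppp2cb by 0.028 (SE 0.030). Ppp4c, the catalytic subunit of PP4, had a difference of -0.042 (SE 0.057). Ppp5c, the catalytic chain of PP5, which works with the Hsp90 chaperone, differed by 0.11 (SE 0.043) with an adjusted p of 0.142 (limma).

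Of the catalytic chains of calcineurin, Ppp3ca and Ppp3cc showed little difference. Ppp3ca, the alpha chain, differed by 0.0028 (SE 0.030) at the brightest probeset and by 0.0064 (SE 0.028) at the other. Ppp3cb, the beta chain, differed by 0.095 (adjusted p = 0.0936, SE 0.034) at the brightest probeset, by 0.15 (adjusted p = 0.0956, SE 0.053) at the next and by -0.0038 (SE 0.041) at the dimmest, none of which passed limma's threshold. Ppp3cc, the gamma chain, differed by 0.015 (SE 0.054).

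Ppp3r1, the calcium-binding B subunit of calcineurin, gave different answers by probeset. Probeset 1369152_at had signals of 12.09 to 12.67 with a median of 12.32 in AU-act, against 11.58 to 12.48 with a median of 11.94 in AI-act. Of the AU-act arrays 3 of 16 lay above every AI-act array, while 9 of 15 AI-act arrays lay below every AU-act array. The difference was 0.35 (SE 0.084), or 1.28-fold (limma, adjusted p = 0.00936), but 0.12 with the beta-actin and Gapdh covariate (adjusted p = 0.5) and 0.038 with hexokinase (adjusted p = 0.94), so neither fit kept the call. The brightest probeset, 1372982_at, had signals of 13.06 to 13.26 in AU-act and 12.94 to 13.39 in AI-act and differed by 0.029 (SE 0.038). Its dimmest probeset, 1391213_at, differed by -0.051 (SE 0.059).

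The scaffolds of PP2A also split. Ppp2r1a, the alpha scaffold, had signals at probeset 1381024_at of 10.86 to 11.32 with a median of 11.11 in AU-act, against 10.10 to 11.16 with a median of 10.79 in AI-act. The difference was 0.33 (SE 0.067), or 1.26-fold (limma, adjusted p = 0.00324), and the call was lost at 0.13 with the beta-actin and Gapdh covariate (adjusted p = 0.303) and at 0.11 with hexokinase (adjusted p = 0.746). At its brightest probeset, 1375245_at, the difference was 0.12 (SE 0.044) and did not pass (adjusted p = 0.106). Ppp2r1b, the beta scaffold, had a difference of -0.13 (SE 0.074, adjusted p = 0.361).

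The B regulatory subunits of PP2A other than Ppp2r2c did not pass. The difference of Ppp2r2a, Ppp2r2b and Ppp2r2d lay between 0.026 and 0.087. Of the 5 B′ subunits 0 passed at the brightest probeset (differences of 0.025 to 0.10) and 1, Ppp2r5e, passed at another. Ppp2r5e, the epsilon form, had signals of 10.52 to 10.79 with a median of 10.68 in AU-act and 10.28 to 10.66 with a median of 10.49 in AI-act at probeset 1395826_at. That difference was 0.16 (SE 0.038, limma, adjusted p = 0.00753), and 9 of 16 AU-act arrays lay above every AI-act array. Probeset 1379554_at differed by 0.24 (SE 0.060, adjusted p = 0.0151), the brightest by 0.069 (SE 0.036, adjusted p = 0.283) and the dimmest by -0.18 (SE 0.099, adjusted p = 0.319). Neither Ppp2r5e call held with the beta-actin and Gapdh covariate, at 0.12 for 1395826_at (limma, adjusted p = 0.293) and 0.10 for 1379554_at (adjusted p = 0.504), or with hexokinase, at 0.085 (adjusted p = 0.719) and 0.058 (adjusted p = 0.869). Of the 3 B″ subunits 0 passed, with differences of -0.11 to 0.11.

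Of the PP1 inhibitors 0 of 7 passed at the brightest probeset, with differences of -0.080 to 0.11. Ppp1r2, inhibitor-2, passed at probeset 1393480_at, with signals of 9.65 to 10.17 and a median of 9.74 in AU-act, against 8.93 to 9.89 and a median of 9.61 in AI-act. The groups overlapped widely, since 5 of 16 AU-act arrays lay above every AI-act array. The difference was 0.25 (SE 0.076, limma, adjusted p = 0.0435), and leaving out any of 17 of the 31 arrays, in turn, ended this call. So did the covariates, at 0.036 with beta-actin and Gapdh (limma, adjusted p = 0.854) and 0.0093 with hexokinase (adjusted p = 0.988). The brightest Ppp1r2 probeset differed by 0.00086 (SE 0.038). Ppp1r1b (DARPP-32), which inhibits PP1 when protein kinase A has phosphorylated it, differed by 0.077 (SE 0.12). Ppp1r1a, inhibitor-1, had a difference of -0.080 (SE 0.096).

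Ppp1r7 alone passed among the targeting and other subunits of PP1. Those that place PP1 on actin and at synapses had differences of -0.041 to 0.17 over 5 genes, with 0 past the threshold. Ppp1r3d, a glycogen-targeting subunit, had a difference of -0.15 (SE 0.067, adjusted p = 0.192), and it was the 1 subunit that was lower at an unadjusted p under 0.05. With dissection covariates, which are scores of dentate granule and CA1 markers, Ppp1r3d passed at -0.20. Ppp1r15b, which brings PP1 to the translation factor eIF2 alpha, differed by 0.010 (SE 0.062) and Ppp1r35 by 0.077 (SE 0.11).

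In the PP4 family 0 of 5 genes passed, with differences of -0.050 (Ppp4r1, a regulatory subunit) to 0.13. In the PP6 family Ppp6r1, a regulatory subunit that binds Ppp6c, passed at its dimmer probeset. Probeset 1385758_at had signals of 9.56 to 9.94 with a median of 9.74 in AU-act, against 9.31 to 9.76 with a median of 9.57 in AI-act. The difference was 0.18 (SE 0.046, limma, adjusted p = 0.0165). It was 0.18 with the beta-actin and Gapdh covariate (limma, adjusted p = 0.214) and 0.19 with hexokinase (adjusted p = 0.619), again without passing. The brightest Ppp6r1 probeset differed by 0.11 (SE 0.044, adjusted p = 0.156), and Ppp6r2 and Ppp6r3 differed by 0.032 and 0.057.

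Of the 9 probesets that passed, 6 were not the brightest of their gene. Among the 15 genes with several probesets, 6 had a probeset that passed and 1 passed at the brightest. Over all 2394 genes with several probesets, 21.4% were higher at some probeset and 3.09% at the brightest. Of the 25 dimmer subunit probesets 6 passed, where 16.8% of all 3205 dimmer probesets were higher.

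Whether probesets of 1 gene differed from each other was tested by permuting the phenotypes on the within-array difference, dimmer minus brightest (25 pairs, 100000 permutations, two-sided, Benjamini-Hochberg over the pairs). Of the 25 pairs 6 had an adjusted p under 0.05. AU-act minus AI-act was larger at the dimmer probeset by 0.32 for Ppp3r1 1369152_at, by 0.25 for Ppp1r2 1393480_at and by 0.21 for Ppp2r1a, each with an adjusted permutation p of 0.00367. It was larger by 0.13 for Ppp1r2 1383180_at (adjusted permutation p = 0.041) and by 0.095 for Ppp2r5e 1395826_at (adjusted permutation p = 0.0182). The sixth pair, named after its values were seen, was Ppp1r12a 1381850_at, of a myosin phosphatase targeting subunit, by 0.26 (adjusted permutation p = 0.041). For Ppp6r1 the pair differed by 0.072 (adjusted permutation p = 0.212) and for Ppp3ca by 0.0036 (0.868). The pairs were not tested with an RNA control covariate. With hexokinase the dimmer and brightest differences were 0.038 and 0.0087 for Ppp3r1 and 0.113 and 0.105 for Ppp2r1a. For Ppp1r2 1393480_at they were 0.0093 and -0.055. With beta-actin and Gapdh they were 0.12 and -0.0016 for Ppp3r1, 0.13 and 0.077 for Ppp2r1a, and 0.036 and -0.082 for Ppp1r2.

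**Figure D3:**
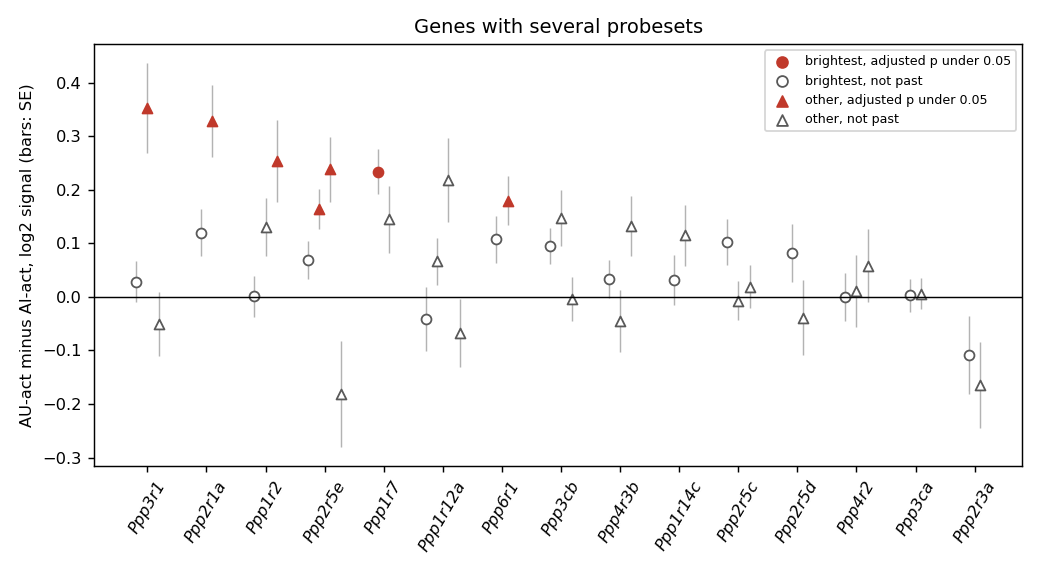
AU-act minus AI-act difference in log2 signal (vertical axis, bars are the SE) at each probeset of the 15 genes with several probesets (horizontal axis), from brightest to dimmest within a gene. Circles are the brightest probesets, triangles the others, and filled red symbols passed limma's adjusted p threshold of 0.05. Ppp3r1 and Ppp2r1a lie at 0.35 and 0.33 for a dimmer probeset and at 0.029 and 0.12 for the brightest.

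The RNA controls moved with phenotype. The array reads the 3′ and the 5′ end of control transcripts, and the gap between the ends widens as RNA gets shorter. For beta-actin and Gapdh together the 3′ signal minus the 5′ signal averaged 1.45 ± 0.097 in AU-act (SD, n = 16) and 1.59 ± 0.13 in AI-act (SD, n = 15) on the log2 scale, a difference of -0.14 (permutation test, two-sided, p = 0.0005). For the hexokinase control probesets it averaged 1.41 ± 0.15 in AU-act and 1.79 ± 0.27 in AI-act, a difference of -0.38 (permutation test, two-sided, p = 4e-05).

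With the beta-actin and Gapdh gap as a covariate 1 of all 16204 probesets passed in AU-act against AI-act, and with the hexokinase gap 0 did. The 9 subunit probesets stayed above 0 with either covariate. Ppp6r1 1385758_at moved little in these fits, while Ppp3r1 1369152_at and Ppp1r2 1393480_at came close to 0 with hexokinase. The part of RNA length in the differences was not tested beyond these fits. With the dissection covariates all 9 passed, at 0.17 to 0.56. Those scores rest on 2 of 7 listed dentate granule genes and 4 of 6 listed CA1 genes.

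**Figure D4:**
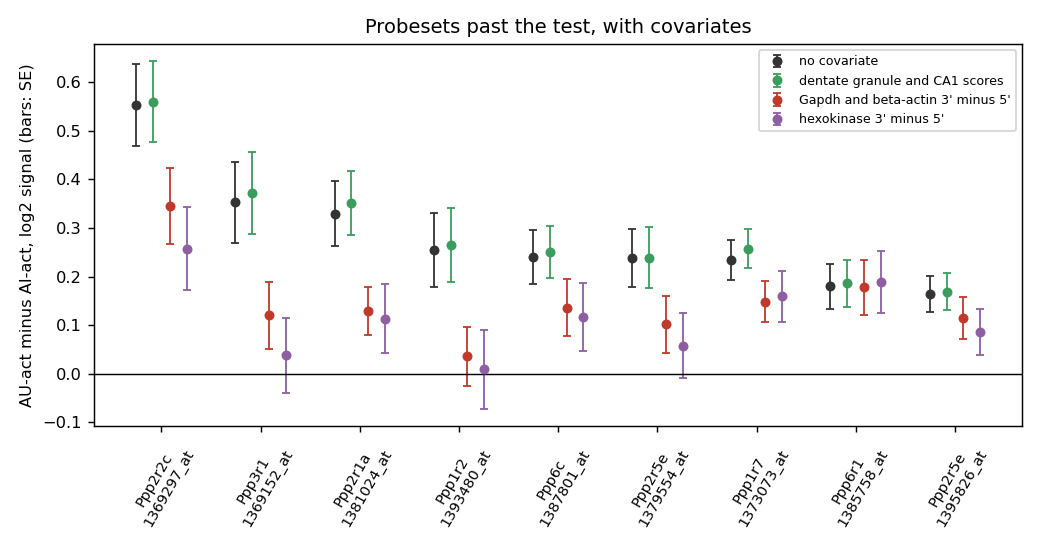
AU-act minus AI-act difference in log2 signal (vertical axis, bars are the SE) of the 9 probesets that passed limma's threshold (horizontal axis), with no covariate, with dentate granule and CA1 scores, and with each RNA control difference as a covariate. Ppp2r2c lies at 0.55 with no covariate and at 0.35 and 0.26 with the Gapdh and beta-actin and the hexokinase controls.

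After spatial training 1 of the 57 subunits, Ppp2r2c, was higher in AU-S than in AI-S at an adjusted p under 0.1, where 0.0775% of all genes were higher. None of the 57 was lower (limma, with 0 at an unadjusted p under 0.05), where 0.0111% of all genes were. Its signals ran from 9.29 to 9.80 with a median of 9.57 in AU-S, against 8.52 to 9.33 with a median of 8.91 in AI-S. Of 8 AU-S arrays 7 lay above every AI-S array. The difference was 0.59 (SE 0.10), or 1.51-fold (limma, adjusted p = 0.0476). The call was lost when any of 6 arrays (replicates 3, 6 and 8 of AI-S and 3, 4 and 5 of AU-S) was left out, although the difference then stayed between 0.56 and 0.59, and with the dissection covariates (0.54) or either RNA control (0.50 and 0.40). The dentate granule score differed by -0.45 between AU-S and AI-S (exact permutation test, two-sided, p = 0.0103), and the beta-actin and Gapdh ends differed by -0.11 (exact permutation test, two-sided, p = 0.0502). The hexokinase ends differed by -0.395 between AU-S and AI-S (exact permutation test, two-sided, p = 0.000777). Ppp6c differed by 0.24 (SE 0.069, limma, adjusted p = 0.161) and Ppp1r7 by 0.15 (SE 0.045, adjusted p = 0.175). Of the 57 brightest probesets 5 had an unadjusted p under 0.05, all higher, where 8.83% of all genes passed that limit. With SAM, the moderated statistic of the study, 3 of the 57 passed, as did 1.7% of all genes.

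After non-spatial training 0 of the 57 subunits passed in AU-NS against AI-NS with limma, where 0% of all genes did, 7 had an unadjusted p under 0.05 (7.03% of all genes did) and 2 passed with SAM (1.52% of all genes did). Ppp1r7 had signals of 10.29 to 10.61 with a median of 10.43 in AU-NS, against 9.90 to 10.29 with a median of 10.11 in AI-NS, and 7 of 8 AU-NS arrays lay above every AI-NS array. The difference was 0.32 (SE 0.067, limma, adjusted p = 0.155). Ppp2r2c had signals of 9.26 to 9.83 in AU-NS and 8.40 to 9.39 in AI-NS and differed by 0.51 (SE 0.14, adjusted p = 0.19). Ppp6c differed by 0.24 (SE 0.093, adjusted p = 0.35). The beta-actin and Gapdh ends differed by -0.18 between AU-NS and AI-NS (exact permutation test, two-sided, p = 0.00591), and with that control as a covariate Ppp1r7 differed by 0.16 and Ppp2r2c by 0.15. The hexokinase ends differed by -0.362 between AU-NS and AI-NS (exact permutation test, two-sided, p = 0.018). Ppp1r3d had signals of 6.89 to 7.17 in AU-NS and 6.97 to 7.56 in AI-NS and a difference of -0.24 (SE 0.084, adjusted p = 0.287).

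The task itself gave no call among the subunits. In AU-S against AU-NS 0 of 57 passed, where 0% of all genes did, with 5 at an unadjusted p under 0.05 (8.07% of all genes) and 0 with SAM (0.0111% of all genes; limma, smallest adjusted p = 0.605). Ppp2r3c, a B″ subunit of PP2A, had signals of 5.98 to 6.39 in AU-S and 6.24 to 6.93 in AU-NS, a difference of -0.30 (SE 0.087). Ppp1r1b had signals of 8.37 to 9.36 in AU-S and 7.98 to 8.62 in AU-NS, a difference of 0.40 (SE 0.13). Ppp1r7 had a difference of -0.14 (SE 0.052) at its brightest probeset. Its dimmer probeset, 1383277_at, had signals of 9.32 to 9.64 in AU-S and 9.62 to 9.90 in AU-NS and a difference of -0.27 (SE 0.059, limma, adjusted p = 0.605). That probeset ranked 6 by p among all 16204 probesets. None of these passed the adjusted threshold.

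In AI-S against AI-NS 0 of 57 passed, where 0% of all genes did, with 3 at an unadjusted p under 0.05 (4.42% of all genes) and 0 with SAM (0% of all genes; limma, smallest adjusted p = 0.862). The 3 were Ppp1r3d at -0.27 (SE 0.087), Ppp1r1a at 0.30 (SE 0.11) and Ppp2r5d, the delta B′ subunit, at 0.17 (SE 0.071). Ppp1r3d was at 6.76 to 7.11 in AI-S and 6.97 to 7.56 in AI-NS, so the groups overlapped.

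Whether the AU minus AI difference itself depended on the task was tested as an interaction in 1 fit of the 4 groups. Of the 57 subunits 0 passed, where 0% of all genes did, and 2 had an unadjusted p under 0.05, as did 2.5% of all genes (limma, smallest adjusted p = 1, with SAM not run). The spatial minus non-spatial difference of differences was -0.26 (SE 0.11) for Ppp2r3c, -0.17 (SE 0.077) for Ppp1r7 and 0.22 (SE 0.12) for Ppp1r15b. For Ppp2r2c it was 0.079 (SE 0.18) and for Ppp6c 0.0035 (SE 0.12).

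Genes that work with these enzymes were taken from a list of 63 partners, of which 45 were measured. They include endogenous inhibitors, anchoring proteins, calcineurin targets and the metal-dependent phosphatases, a family of separate origin. At the brightest probeset 0 of 45 passed with limma in AU-act against AI-act, 6 had an unadjusted p under 0.05 (13.3%, where 14% of all genes did) and 2 passed with SAM (4.44%, where 5.53% of all genes did). The median difference was 0.027, against 0.0032 over all genes. Ppm1a, a metal-dependent phosphatase, differed by 0.33 (SE 0.11, limma, adjusted p = 0.055). Arpp19, a small inhibitor of PP2A, differed by 0.18 (SE 0.057, adjusted p = 0.0641). Its relative Ensa differed by 0.19 (SE 0.071, adjusted p = 0.114). Rcan1, an inhibitor of calcineurin, differed by 0.16 (SE 0.066, adjusted p = 0.167) and Akap5, which anchors calcineurin at synapses, by 0.30 (SE 0.13, adjusted p = 0.194).

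Counting any probeset, 6 of the 45 partners were higher and 0 lower, where 6.89% and 0.443% of all genes were. Ptpa, an activator of PP2A, differed by 0.50 (SE 0.12, limma, adjusted p = 0.00721) at a dimmer probeset and by 0.077 (SE 0.045, adjusted p = 0.349) at its brightest. Ppm1k, a mitochondrial phosphatase, differed by 0.55 (SE 0.15, adjusted p = 0.0226). Arpp19 differed by 0.31 (adjusted p = 0.00374) and 0.22 (adjusted p = 0.0104) at its dimmer probesets. Akap11, an anchoring protein that binds PP1, differed by 0.26, Anp32e by 0.21 and Pptc7 by 0.30 and 0.21. Each of these partner calls was at a probeset other than the brightest of its gene. Among all 3205 such probesets 16.8% were higher, and 21.4% of all genes with several probesets were higher at some probeset. With the beta-actin and Gapdh covariate 1 of all 16204 probesets passed, and with hexokinase 0 did.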

How the data were processed

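The deposited values are log2 signals that the authors made from the scanned arrays with gcRMA (background correction, quantile normalization and summarization of each probeset); its version is not given in the sources used here. The authors left out 1 AI-NS array. Values ran from 1.31 to 16.12, and the smallest mean of a probeset was 5.00, so the authors' low intensity limit of 4 removed none. The deposited table held fewer probesets than the array carries, and none with a mean under 5.00. Shares of all genes are therefore shares of the genes in this table. A marker or partner that was not measured is one absent from it, whatever its signal on the array. Depth in counts does not apply to arrays, whose number (31) limits the precision.

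Probesets were named through the platform annotation (12242 with 1 gene, 293 with several, 3669 with none), updated by gene ID through RefSeq. A probeset that names Ppp2ca together with another gene was not used. The tests were two-sided moderated fits (limma 3.58.1 under R 4.3.3) with Benjamini-Hochberg adjustment over 16204 probesets, and a result passed at an adjusted p under 0.05 for AU-act against AI-act or under 0.1 elsewhere. Control and marker scores, and probeset pairs, were compared by permutation (SciPy 1.17.1), exactly where a group had fewer than 10 arrays. SAM was coded by hand with 100 permutations. In a test on simulated data 59.5% of 200 probesets changed by 1.2-fold and 95% of those changed by 1.5-fold were recovered for AU-act against AI-act, 18.5% and 82% for AU-S against AI-S, and 13% and 86.5% for AU-NS against AI-NS. The simulated noise was independent between probesets and arrays and held no RNA control difference between phenotypes. The shares recovered apply to that setting only. Python 3.11 with matplotlib 3.10.9 drew the figures.

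The genes named are those that passed at any probeset, all catalytic, scaffold and calcineurin B subunits, the 3 smallest p in each other comparison, genes whose probesets split, the 5 highest and 5 lowest by signal, and for partners those that passed or the 5 smallest p. Other genes are named only for a range, a pair or a count. The members and lists were chosen with earlier results of these data known. Alternatives were intensity limits of 6 on the mean and of 4 on every array, a robust prior with a trend, quantile normalization, median centring, a block for the replicate number, array weights, RNA control, hexokinase and dissection covariates, 1 fit of the 4 groups, SAM, the median over probesets, every probeset, and each array left out.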

Additional observations from a re-analysis of the deposited data

Results flagged for a closer look

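Of 164 sets of values (a named probeset in 1 group of rats), 12 had a highest or lowest array far from the rest by Dixon's test at the 95% level, which chance gives in about 1 in 20 sets. AU-NS replicate 7 was high for Ppp3ca at both probesets, 14.87 against a next value of 14.72 at 1368277_at and 15.52 against 15.36 at 1373479_at. In the other AU-NS sets, Ppp2r1b was low in replicate 4 (7.33, next 7.58) and Ppp2ca was low in replicate 5 (11.50, next 11.63). In AU-S, Ppp2r5e 1379554_at was high in replicate 3 (7.62, next 7.40), Ppp1r2 1393480_at in replicate 1 (10.17, next 9.89) and the brightest Ppp6r1 probeset in replicate 5 (11.26, next 11.10), while Ppp2r3c was low in replicate 8 (5.98, next 6.21). In AI-NS, Ppp2r1a 1381024_at was low in replicate 8 (10.10, next 10.73), Ppp2r5d 1395502_at was low in replicate 4 (7.33, next 7.74) and Ppp1r1a was high in replicate 3 (9.84, next 9.31). In AI-S, Ppp5c was low in replicate 5 (9.19, next 9.40). Ppp2r1a 1381024_at still passed the threshold without AI-NS replicate 8, and without any other array in turn. Its difference ranged from 0.28 to 0.36 over the arrays left out.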

How the results depend on the processing

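Of the 9 probesets that passed in AU-act against AI-act, all stayed above 0 and 8 or 9 stayed past the threshold under every alternative run on them except the RNA control and hexokinase covariates, under which 0 of 9 passed (the median over probesets applied to 3 of them, and all 3 passed). With 1 array left out, 8 of the 9 always passed. Ppp1r2 1393480_at was the one lost under median centring (0.24), quantile normalization (0.24), the replicate block (0.25) and the 4-group fit (0.26). The count of 3 subunits at the brightest probeset became 5 with array weights and 0 with either the RNA control or the hexokinase covariate. It became 6 with SAM, where 5.53% of all genes passed, against 2.05% higher and 0.31% lower with limma. The count was 7 with the median over probesets and 8 with every probeset, where 6.89% of all genes were higher at some probeset. With an array left out it was 3 to 5 (5 without AI-NS replicate 4). With the dissection covariates the 3 still passed, and Ppp1r3d also passed as lower (-0.20, limma, adjusted p = 0.0466). Shares of all genes with array weights, the 4-group fit and the median over probesets are not given here. The count of 8 at any probeset became 0 with either covariate, and 7 to 11 with an array left out. The 1 subunit of AU-S against AI-S became 3 with array weights or SAM, 0 with the RNA control, hexokinase or dissection covariates, and 0 to 3 with an array left out (3 without AI-S replicate 1, 2 without AI-S replicate 7). The 0 of AU-NS against AI-NS became 1 with array weights and 2 with the 4-group fit or SAM, and 0 to 1 with an array left out (1 without AI-NS replicate 3). The 0 partners became 2 with array weights or SAM, 1 with the 4-group fit, 4 with the median over probesets, and 0 to 2 with an array left out (2 without AI-NS replicate 3 or 4, and 1 without AI-NS 6, AU-NS 7, AI-S 1, AI-S 7, AU-S 3 or AU-S 5). The task comparisons and the interaction stayed at 0 under all that were run. Arrays with the same replicate number did not deviate together (mean r = -0.083 over 45 pairs, -0.47 to 0.31). Arrays with other numbers had a mean r of 0.012 over 315 pairs (-0.515 to 0.511). No pairing by number was seen in these values, and the labels do not say what the numbers stand for. With the number as a block the counts were 3 at the brightest probeset, 7 at any probeset, and 0 for AU-S against AI-S, where Ppp2r2c differed by 0.59. The cause of these shifts was not tested.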
